A study of Rattus norvegicus with 6 samples.

Results

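TEG3, a clonal cell line made by transfecting cultured rat olfactory ensheathing cells (OECs) with a plasmid for the SV40 large T antigen, was compared with OEC Lp, a primary OEC culture carried past 50 population doublings without that plasmid. Both came from the olfactory nerve layer of Wistar rats, at postnatal day 21 for OEC Lp and at day 60 for TEG3, and both grew in DMEM with 3% serum, 20 µg/ml bovine pituitary extract and 2 µM forskolin. The comparison took all 4 arrays of these populations among the 6 of the series, 1 U34A array and 1 RAE2.0 array (Affymetrix rat expression arrays) for each. The remaining arrays hold OEC Ep, a primary culture of the same age and medium with less than 3 doublings, which entered the estimate of spread and whose signals are given for context. Per the labels, both primary cultures reached a purity above 90% by immunocytochemistry. TEG3 is 1 clone, so the line, the clone, the donor age and large T cannot be told apart. The design text describes 2 RNA pools per population, each from 3 culture dishes, and names U34A alone. Whether the U34A and RAE2.0 arrays carried separate pools is not given, so p-values measure only the spread between these arrays, which may be technical.

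OECs are glia of neural crest origin that wrap olfactory axons and accompany their growth into the olfactory bulb. Large T binds the retinoblastoma family of pocket proteins, which otherwise hold back E2F factors, the activators of DNA replication genes, and it also binds the p53 protein. Many mitotic genes are held down outside G2 and M by the DREAM complex, which contains pocket proteins and acts through CHR and CCAAT elements near the start of transcription.

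All values are signals on the linear scale of the Microarray Suite 5.0 software, scaled within an array type, with values under the 40th percentile set to that floor (129 on U34A, 168 on RAE2.0). A probe set at the floor has only an upper bound, so a fold against a gene with any such probe set is written "at least". The arrays were alike in the share of probe sets above the floor (59.1 to 61.8%), and the GAPDH 3'/5' signal ratio, a sign of RNA integrity, was 1.52 in OEC Lp, 1.54 in TEG3 and 1.96 in OEC Ep on U34A, and 0.981, 1.02 and 1.02 on RAE2.0. The defining OEC markers were absent or dim in both populations. The glial transcription factor Sox10 was at the floor in OEC Lp on both types and at 201 and 233 in TEG3, against 2906 and 5745 in OEC Ep. The calcium-binding glial protein gene S100b was at the floor in OEC Lp on both types and, in TEG3, at 132 on U34A and at the floor on RAE2.0, against 6123 and 40382 in OEC Ep. The astroglial filament gene Gfap, measured on RAE2.0 alone, was at the floor in OEC Lp and TEG3 and at 3237 in OEC Ep. The neurotrophin receptor gene Ngfr gave 2564 in OEC Lp against 3625 in TEG3 on U34A but was at the floor in both on RAE2.0, so its probe sets disagreed.

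Of 3130 genes measured on both array types, 39 differed between TEG3 and OEC Lp at an adjusted p under 0.05 (1.25%, limma with array type as the replicate block, Benjamini-Hochberg adjustment), and these are the called genes below. Of them, 6 were higher in TEG3 (0.192%) and 33 were lower (1.05%). Signals of genes that were not called are given as values with no claim of a change. Each of the 39 had the same direction and differed at least 2-fold on both types, a concordance that the test itself requires since its residual is the disagreement of the types. Their folds ran from 4.52 to 54.6 with a median of 8.48, and 21 of them are lower bounds, with at least 1 probe set at the floor in the dimmer population. Over all 3130 genes the median log2 difference was -0.01, 57.2% had the same direction on both types, and the log2 ratios of the types had a Pearson r of 0.52 and a Spearman rho of 0.37 across genes, which are not independent replicates. At least 2-fold differences in the same direction on both types were seen in 81 genes higher (2.59%) and 154 lower (4.92%), and in opposite directions in 13 (0.415%). In these bulk cultures, fewer cells of a type and less RNA per cell cannot be told apart.

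**Figure D1:**
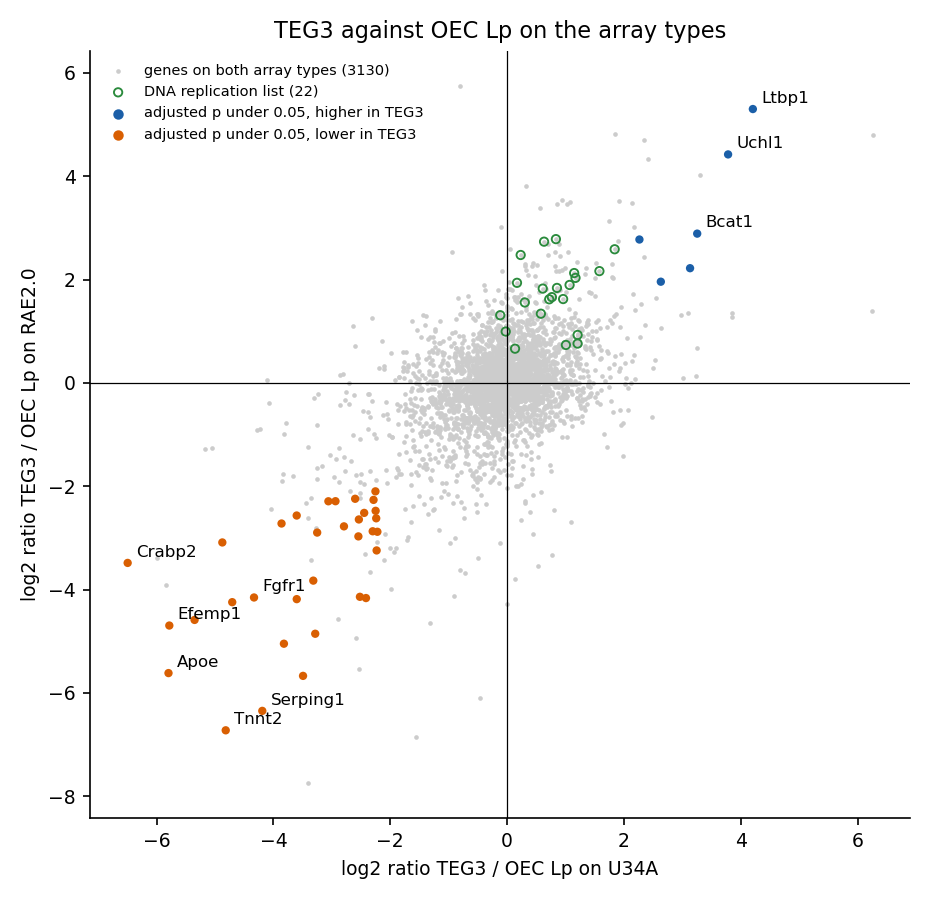
Log2 ratio of TEG3 over OEC Lp on U34A (horizontal) against RAE2.0 (vertical) for 3130 genes, 1 point per gene, with the 39 genes at an adjusted p under 0.05 in blue (6 higher) and orange (33 lower) and the 22 DNA replication genes ringed in green. The called genes lie near the diagonal and far from 0, and 20 of the 22 replication genes lie above 0 on both axes with smaller ratios.

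The number of calls rested on how dim signals were treated and on every array. Limma called 0 genes with no floor or with no filter on dim probe sets. It also called 0 with the 4 arrays of TEG3 and OEC Lp alone, and without the replicate block. In these fits 436, 469, 375 and 108 genes had an unadjusted p under 0.05, against 482 here. Leaving out any single array left 1 population with 1 array, and no call remained. All 39 genes kept their direction in each of these. For the 4 arrays alone and without the block this was fixed in advance, since the estimated difference is the same there. Without a single array it could hardly change, since each gene already differed at least 2-fold on both types. A floor at the 20th percentile left 4 calls.

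Among the 6 genes higher in TEG3, Ltbp1, which encodes a protein that tethers latent TGF-beta to the matrix, had the largest difference. Its signal was 252 in OEC Lp against 4647 in TEG3 on U34A, and at the floor and 6630 on RAE2.0. OEC Ep, at 2914 and 6071, was close to TEG3, and OEC Lp stood apart. The log2 difference was 4.75 ± 0.46 (SE, 2 arrays per population), at least 27.0-fold, with an adjusted p of 0.0275. Uchl1, a ubiquitin hydrolase gene abundant in neurons, followed, with 272 in OEC Lp against 3741 in TEG3 on U34A and the floor and 3607 on RAE2.0. This was at least 17.2-fold higher (log2 4.10 ± 0.36, adjusted p 0.0219), and OEC Ep was above both at 5760 and 6969. Uchl1 was the 1 called gene of 9 neuronal markers on both types, where 0.192% of all genes were called higher. Of the 9, 2 were higher on both types and 2 lower on both (26.5% and 30.6% of all genes).

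Bcat1, the cytosolic branched-chain aminotransferase, went from 305 in OEC Lp to 2906 in TEG3 on U34A and from 548 to 4065 on RAE2.0, with no value at the floor. It was 8.41-fold higher (log2 3.07 ± 0.30, adjusted p 0.0291). The membrane-associated growth cone gene Basp1 read 270 in OEC Lp against 2363 in TEG3 on U34A, and 633 against 2951 on RAE2.0, 6.39-fold higher (adjusted p 0.0404). For Adora2b, an adenosine receptor, OEC Lp lay at the floor on U34A and at 225 on RAE2.0, while TEG3 gave 621 and 1541, at least 5.74-fold higher (adjusted p 0.0440). The fatty acid carrier gene Fabp5 was abundant in both, at 3106 and 3895 in OEC Lp and 19246 and 15148 in TEG3, and 4.91-fold higher (adjusted p 0.0462). OEC Ep lay nearer to TEG3 than to OEC Lp for 5 of these 6 genes, Adora2b being the exception.

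The lower genes covered secreted carriers, matrix, coagulation and complement control, and cell surface proteins. Apoe, a lipid carrier secreted by glia and macrophages, had the lowest adjusted p of all 3130 genes. Its signal was 16281 in OEC Lp against 293 in TEG3 on U34A, and 14669 and 299 on RAE2.0, so TEG3 was near the floor on both. It was at least 52.3-fold lower (log2 -5.71 ± 0.30, adjusted p 0.00783), and OEC Ep, at 20273 and 22939, was on the side of OEC Lp. Tnnt2, the cardiac form of troponin T, was 4912 in OEC Lp against 174 in TEG3 on U34A, and 17776 and at the floor on RAE2.0, at least 54.6-fold lower (adjusted p 0.0219). OEC Ep was at the floor on U34A and at 194 on RAE2.0, so Tnnt2 signal was high in OEC Lp alone. Crabp2, which carries retinoic acid to its receptor, gave 12926 in OEC Lp against 143 in TEG3 on U34A, but only 1980 and 177 on RAE2.0. The fold of 31.8 (adjusted p 0.0478) averages ratios that differed between the types, and its SE of 0.72 was the widest of the 39. Selenop, a selenium transport protein, was 1288 in OEC Lp against the floor in TEG3 on U34A and 2965 against 209 on RAE2.0, at least 11.9-fold lower (adjusted p 0.0219).

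Called genes of the protease inhibitor and complement lists came next, with Thbd, which the naming rule gave by its size. Serping1, the C1 inhibitor of complement, was 2359 in OEC Lp on U34A and 13697 on RAE2.0, and at the floor in TEG3 on both, at least 38.6-fold lower (log2 -5.27 ± 0.54, adjusted p 0.0320). Tfpi, the inhibitor of tissue factor, was 5269 in OEC Lp against the floor in TEG3 on U34A, and 8253 and 343 on RAE2.0, at least 31.3-fold lower (log2 -4.97 ± 0.36, adjusted p 0.0216). For both, OEC Ep lay well below OEC Lp, at 265 and 854 for Serping1 and 471 and 1407 for Tfpi. Thbd, thrombomodulin, was 1753 and 2964 in OEC Lp and 306 and at the floor in TEG3, at least 10.1-fold lower (adjusted p 0.0462). Cd59b, which blocks the membrane attack complex, was 3166 in OEC Lp against 649 in TEG3 on U34A, and 3568 and 743 on RAE2.0, 4.84-fold lower (adjusted p 0.0379). Tissue factor itself, F3, had the opposite sign without passing the test: at the floor in OEC Lp against 1873 in TEG3 on U34A, 1446 and 3496 on RAE2.0, adjusted p 0.147. The thrombin receptor gene F2r was at the floor in OEC Lp on U34A but at 4880 on RAE2.0, against 9855 and 12780 in TEG3, adjusted p 0.257.

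Matrix genes followed. Efemp1, a fibulin, was 7111 and 4358 in OEC Lp and at the floor in TEG3 on both types, at least 37.8-fold lower (log2 -5.24 ± 0.40, adjusted p 0.0216). Omd, osteomodulin, a leucine-rich proteoglycan, was 1455 and 8564 in OEC Lp and at the floor in TEG3, at least 24.0-fold lower (adjusted p 0.0437). Esm1, a secreted dermatan sulfate proteoglycan, was 1567 and 3058 against the floor on both, at least 14.9-fold lower (adjusted p 0.0462). All 3 were at the floor in TEG3 on both types and measured in OEC Lp. Loxl1, which crosslinks elastin, stayed measurable in TEG3, at 1302 and 1646 against 12406 and 12263 in OEC Lp, 8.42-fold lower (adjusted p 0.0370).

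At the cell surface, Fgfr1, a receptor for fibroblast growth factors, was 4079 in OEC Lp against 202 in TEG3 on U34A, and 7771 and 437 on RAE2.0. It was 18.9-fold lower (log2 -4.24 ± 0.38, adjusted p 0.0219), with TEG3 also below OEC Ep (1842 and 1862). Fgf1, a ligand of that receptor, was 1566 and 1034 in OEC Lp against 331 and the floor in TEG3, at least 5.39-fold lower (adjusted p 0.0370), so ligand and receptor genes were both lower. Itgb4, the integrin beta subunit of hemidesmosomes, was 1825 in OEC Lp against the floor in TEG3 on U34A, and 6351 and 192 on RAE2.0, at least 21.6-fold lower (adjusted p 0.0370). Alcam, an immunoglobulin adhesion molecule of growing axons, was 3268 in OEC Lp against 471 in TEG3 on U34A and 24120 and 3520 on RAE2.0, 6.89-fold lower (adjusted p 0.0370). Its mean ratio hardly differed between the types (6.93 and 6.85), but its probe sets on U34A did differ. Their log2 ratios were -4.36, -1.87 and -2.15, against -2.78 for the 1 probe set on RAE2.0. Cx3cl1, the membrane-bound chemokine fractalkine, was 2387 and 1303 in OEC Lp against 197 and 220 in TEG3, at least 8.48-fold lower (adjusted p 0.0370). The junction-associated gene Tmem47 was 3370 in OEC Lp against the floor in TEG3 on U34A and 5381 and 284 on RAE2.0, at least 22.2-fold lower (adjusted p 0.0462). Gng11, a G protein gamma subunit, and Akr1c14, a hydroxysteroid dehydrogenase, were at the floor in TEG3 on both types, at least 15.8-fold and 16.8-fold lower.

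The remaining 13 lower genes, outside the naming rule and listed after their values were seen to complete the set, were 4.52-fold to 9.79-fold lower, some of these folds being lower bounds. They included the tetraspanin Cd81, the phospholipid-binding annexin Anxa5, the lipid phosphatase Plpp3, the mTOR complex gene Rictor, the surface glycoprotein genes Cd24 and Cd48, and Nbl1, an antagonist of bone morphogenetic proteins, with Cpq, Lbh, Adgrl2, Uaca, Snn and Rassf9. Against OEC Ep, the 33 lower genes were of both kinds: the OEC Ep mean log2 signal was nearer to TEG3 for 19 and nearer to OEC Lp for 14. Among all 39 genes, no probe set passing the filter had the opposite direction to its gene, and 19 genes had more than 2 probe sets in all.

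**Figure D2:**
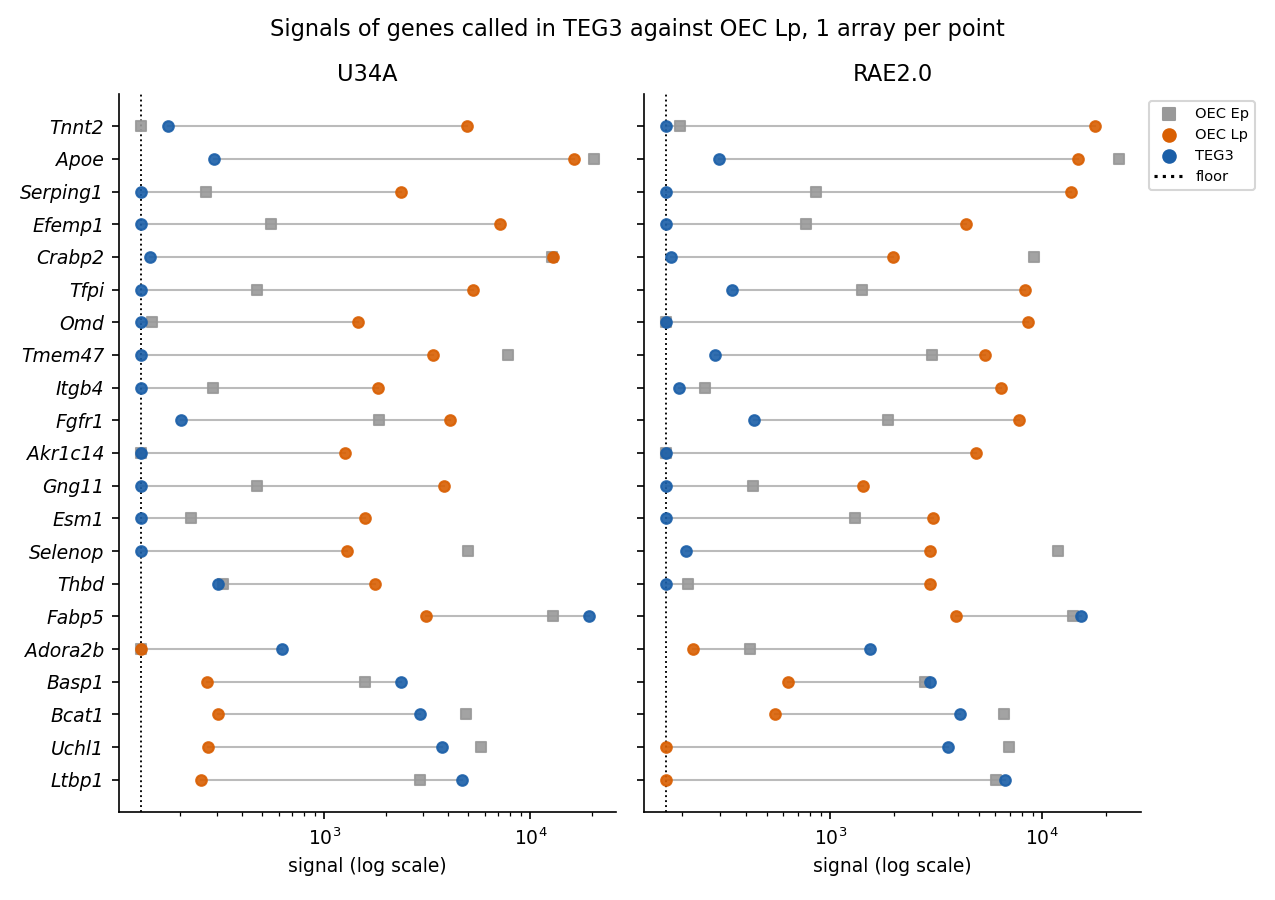
Signals on U34A (left) and RAE2.0 (right), log scale, for the 15 largest lower and all 6 higher genes, with OEC Lp in orange, TEG3 in blue, OEC Ep as grey squares and the floor dotted. OEC Lp and TEG3 are separated on both panels for each gene, and OEC Ep falls next to TEG3 for Tnnt2 and next to OEC Lp for Apoe.

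Most DNA replication genes gave more signal in TEG3 than in OEC Lp on both array types, although none passed the adjusted threshold. Of 55 listed genes, 50 were on the arrays and 49 passed the filter. On RAE2.0, 42 of 49 lay at least 2-fold above OEC Lp and 0 below, at a median log2 ratio of 1.89, whereas 9.61% of all genes on that array were at least 2-fold higher, 8.69% lower, and their median was 0. Of the 22 on both types, 20 were higher on both and 0 were lower on both (26.5% and 30.6% of all genes), and the median log2 difference was 1.22. Limma called 0 of the 22, and 15 had an unadjusted p under 0.05, all higher, against 5.91% of all genes higher and 9.49% lower. On U34A alone the shift was smaller, with a median of 0.80 and 8 of 22 at least 2-fold higher and 0 lower (8.06% and 11.5% of all genes there). The median on both types lay between 0.86 and 1.74 as single arrays were left out. The summed signal of the 22 genes on U34A came to 40526 in OEC Lp against 73016 in TEG3 (19867 in OEC Ep), and that of the 49 on RAE2.0 to 79183 against 269966 (78038 in OEC Ep).

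By role, the replicative helicase comes first. Mcm7 was 2996 in OEC Lp against 8957 in TEG3 on U34A, and 4483 and 20097 on RAE2.0 (log2 1.87 ± 0.36, adjusted p 0.0810). Mcm6 was 3573 and 6373 on U34A but 1494 and 10288 on RAE2.0 (log2 1.81 ± 0.51, adjusted p 0.194). Mcm2 and Mcm3, on RAE2.0 alone, were 1647 and 1212 in OEC Lp and 7018 and 6531 in TEG3. Loading and initiation factors had the same sign on RAE2.0: the licensing factor Cdt1 was 1222 in OEC Lp and 7031 in TEG3, the origin recognition subunit Orc6 660 and 3572, and the helicase cofactor Gins1 256 and 2593. Polymerase genes included Pold1, the catalytic subunit of the lagging-strand polymerase, at 598 in OEC Lp against 2143 in TEG3 on U34A and 323 and 1941 on RAE2.0 (log2 2.21 ± 0.48, adjusted p 0.109). Pola2, a subunit of the polymerase that extends primers, was 417 and 925 on U34A and 349 and 1524 on RAE2.0 (adjusted p 0.109). Prim1, the primase, was 2111 and 4430, and 5754 and 21422 (adjusted p 0.178). TEG3 was the higher population in each of these pairs. The sliding clamp Pcna, already 13305 and 11568 in OEC Lp, was 21926 and 35528 in TEG3 (adjusted p 0.260). Nucleotide synthesis genes differed less: Tyms, thymidylate synthase, was 594 and 653 on U34A and 836 and 1323 on RAE2.0, while thymidine kinase Tk1, on RAE2.0 alone, was 517 and 1779.

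E2F factors are known to act at promoters of replication genes, so these were read. RefSeq promoters (build GRCr8, 250 bases before to 50 after the start) were found for 45 of the 49 replication genes on RAE2.0. An E2F motif (TTTGGCGC, TTTCGCGC, TTTCCCGC or TTTGCCGC on either strand, where matches on opposite strands may overlap) was in 21 of the 45 (46.7%), against 4.06% of 9599 promoters of genes measured on RAE2.0 and 2.25% of all 27457. It was in 0 of 26 promoters of genes lower in TEG3 and 0 of 5 of genes higher. A match describes the sequence and is not a measured binding site. The 150 bases upstream of the start are shown for 4 helicase genes, with the E2F letters in capitals, chosen as those with the largest ratios on RAE2.0 among genes with a match there.
Gins1 (chr3:160184770-160184919, plus strand): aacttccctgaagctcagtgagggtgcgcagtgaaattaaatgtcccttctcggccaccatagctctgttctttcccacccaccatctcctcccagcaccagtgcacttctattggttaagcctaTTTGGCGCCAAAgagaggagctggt
Mcm6 (chr13:42404353-42404502, minus strand): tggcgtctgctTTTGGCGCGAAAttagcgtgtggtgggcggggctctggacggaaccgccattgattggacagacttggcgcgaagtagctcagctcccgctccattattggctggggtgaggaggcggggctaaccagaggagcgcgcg
Mcm5 (chr19:13488663-13488812, plus strand): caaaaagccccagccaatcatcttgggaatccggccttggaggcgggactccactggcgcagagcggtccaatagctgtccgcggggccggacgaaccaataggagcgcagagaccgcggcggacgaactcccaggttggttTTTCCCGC
Mcm7 (chr12:22163179-22163328, minus strand): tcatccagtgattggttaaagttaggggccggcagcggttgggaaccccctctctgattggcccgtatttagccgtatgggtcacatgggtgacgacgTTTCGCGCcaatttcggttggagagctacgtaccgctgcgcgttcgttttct
Within these stretches Gins1 and Mcm6 carry matches that overlap on opposite strands, and Mcm5 and Mcm7 a single one. Mcm5, outside the naming rule, was 594 in OEC Lp against 698 in TEG3 on U34A and 1094 and 6089 on RAE2.0, so the array types differed in size there.

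Mitosis and spindle genes showed the same direction, mainly on RAE2.0. There, 43 of 54 members lay at least 2-fold above OEC Lp and 0 below (9.61% and 8.69% of all genes), at a median log2 ratio of 1.67. The U34A median of 22 members was 0.35. Only 1 of these 22 reached 2-fold above OEC Lp, while 8.06% of all genes on U34A did. Past 2-fold, U34A therefore showed no excess of higher mitosis genes. Of 20 genes on both types, 16 were higher on both and 0 lower on both (26.5% and 30.6% of all genes). Their median log2 difference was 0.94. Limma called 0 of these 20, and 4 had an unadjusted p under 0.05, all higher (5.91% of all genes were higher and 9.49% lower). Without the OEC Lp array on RAE2.0 the median was 0.37, and without that on U34A it was 1.48. The summed signal of 54 genes on RAE2.0 came to 96695 in OEC Lp against 282987 in TEG3 (155929 in OEC Ep), and that of 22 genes on U34A to 48871 against 49258 (27174 in OEC Ep), so OEC Lp changed its place relative to OEC Ep between the types.

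The mitotic kinase gene Cdk1 was 1862 in OEC Lp against 2542 in TEG3 on U34A and 3203 and 16022 on RAE2.0 (log2 1.39 ± 0.59, adjusted p 0.348). Its partner cyclin Ccnb1 was 2493 and 4424 on U34A and 1724 and 9983 on RAE2.0 (adjusted p 0.305). The spindle motor gene Kif11 was at the floor in OEC Lp against 239 in TEG3 on U34A, and 866 and 3889 on RAE2.0 (adjusted p 0.170). Each ratio was larger on RAE2.0. On RAE2.0 alone, the kinetochore genes Zwilch and Nuf2 were 959 and 1438 in OEC Lp and 5727 and 6902 in TEG3, and the checkpoint kinase Ttk was 682 and 3945. The proliferation marker Mki67 was 2896 and 10492, and the cyclin A gene Ccna2 was 1758 and 5130. These genes were also expressed in OEC Ep, for example Mki67 at 4430.

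Among 47 mitosis promoters found, the CHR motif TTTGAA was in 33 (70.2%) against 11.6% of promoters of genes measured on RAE2.0. The CCAAT box (CCAAT) was in 36 (76.6%) against 37.8%, and both were in 27 (57.4%) against 4.83%, each counted on either strand. The E2F motif was in 2 (4.26%). The 150 bases upstream are shown for the 4 genes with the largest ratios on RAE2.0 among those with both motifs inside that stretch, with the CHR and CCAAT letters (or their reverse complements TTCAAA and ATTGG) in capitals.
Cdk1 (chr20:19265143-19265292, plus strand): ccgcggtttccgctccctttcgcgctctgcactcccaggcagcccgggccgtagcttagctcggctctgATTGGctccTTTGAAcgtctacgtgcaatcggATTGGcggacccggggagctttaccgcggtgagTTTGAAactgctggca
Spc25 (chr3:74396719-74396868, minus strand): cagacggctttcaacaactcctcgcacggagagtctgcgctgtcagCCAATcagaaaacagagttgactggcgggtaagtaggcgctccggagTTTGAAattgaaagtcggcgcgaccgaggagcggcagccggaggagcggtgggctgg
Kif22 (chr1:191080879-191081028, minus strand): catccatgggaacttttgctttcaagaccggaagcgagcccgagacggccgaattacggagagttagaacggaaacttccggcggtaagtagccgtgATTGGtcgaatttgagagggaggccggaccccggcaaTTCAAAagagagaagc
Mki67 (chr1:199952594-199952743, minus strand): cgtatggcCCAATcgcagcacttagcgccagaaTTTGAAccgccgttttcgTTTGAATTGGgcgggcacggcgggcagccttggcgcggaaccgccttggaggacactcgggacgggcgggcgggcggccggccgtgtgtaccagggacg
In Mki67 a CHR and a CCAAT match share bases. Spc25, a kinetochore subunit, was 1677 in OEC Lp and 6540 in TEG3 on RAE2.0, and the kinesin Kif22 was 1352 and 4973, both named for their sequence.

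**Figure D3:**
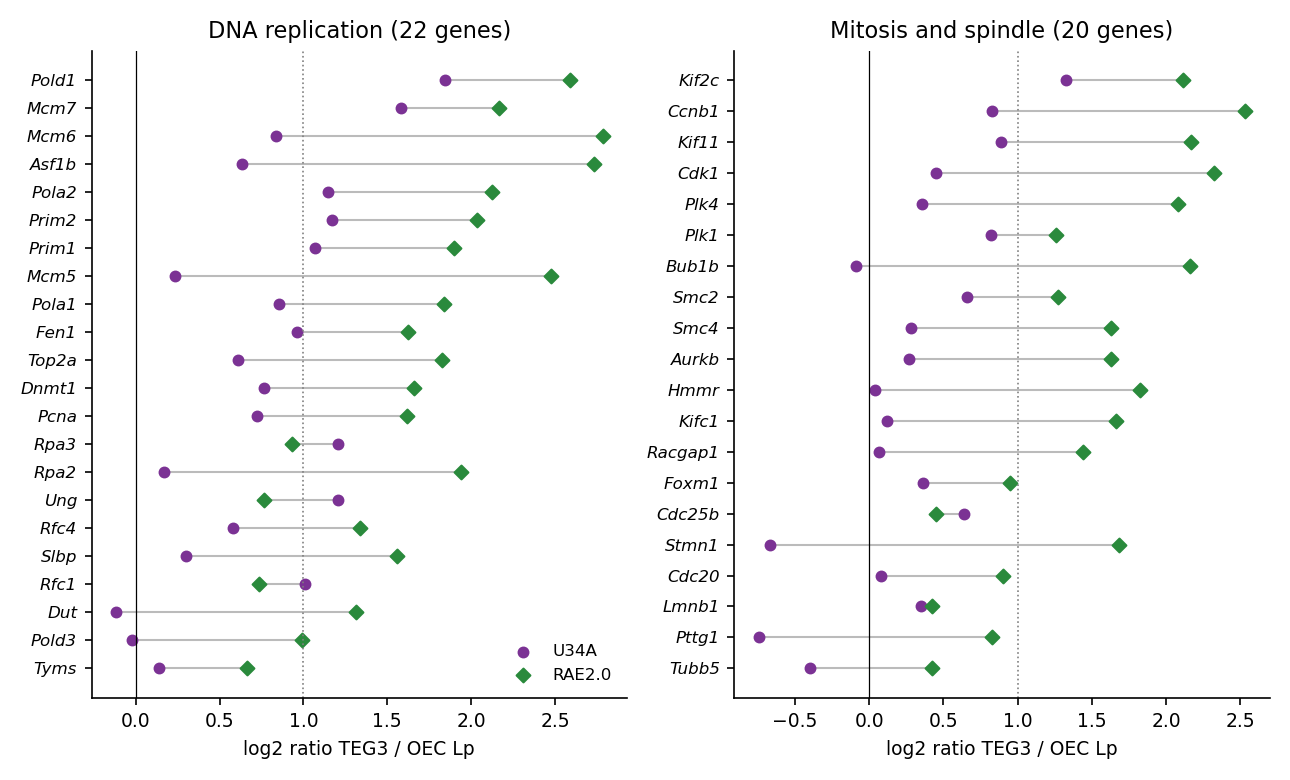
Log2 ratio of TEG3 over OEC Lp for each DNA replication gene (left, 22 genes) and mitosis gene (right, 20 genes) on both array types, U34A as purple circles and RAE2.0 as green diamonds, with 2-fold dotted. In 20 of the 22 replication genes and 16 of the 20 mitosis genes both points lie above 0.

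DNA repair and checkpoint genes had 18 of 34 members at least 2-fold higher and 1 lower on RAE2.0 (9.61% and 8.69% of all genes), with a median log2 ratio of 1.25. On RAE2.0 alone, the Fanconi gene Fancd2 was 328 in OEC Lp and 2306 in TEG3, the checkpoint kinase Chek1 781 and 4241, and the recombination gene Rad54l 361 and 1949. On both types limma called 0 of 12, with 3 higher and 1 lower at an unadjusted p under 0.05 (5.91% and 9.49% of all genes). Timeless, which protects replication forks, came closest, at 291 in OEC Lp against 1021 in TEG3 on U34A and 331 and 1349 on RAE2.0 (log2 1.92 ± 0.30, adjusted p 0.0562). The repair gene Mgmt went the other way, at 770 and 410, and 1218 and 700 (adjusted p 0.263).

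Among pocket proteins, E2F factors and G1 cyclins, 8 of 26 members were at least 2-fold higher and 2 lower on RAE2.0 (median 0.73; 9.61% and 8.69% of all genes). Limma called 0 of 11 on both types, with 2 higher and 2 lower at an unadjusted p under 0.05 (5.91% and 9.49% of all genes). The pocket proteins were unequal: Rbl1 (p107) was 761 in OEC Lp and 4296 in TEG3 on RAE2.0, Rb1 880 and 1649, and Rbl2 (p130) 490 and 583 on U34A and 1181 and 2270 on RAE2.0 (adjusted p 0.513). E2f1, an activator E2F, was 630 and 2072 on RAE2.0, and the repressive E2f7 and E2f8 were 233 and 234 in OEC Lp and 1113 and 1094 in TEG3. E2f5, a pocket protein partner, was 859 and 834, and 1971 and 1894 (adjusted p 0.977). The D cyclins, which act upstream of the pocket proteins, ran against this. Ccnd2 was 513 in OEC Lp against the floor in TEG3 on U34A, and 3880 and 243 on RAE2.0 (at least 7.97-fold, adjusted p 0.0913). Ccnd1 was 693 and 370, and 5384 and 310 (at least 5.70-fold, adjusted p 0.205), with 1 of its U34A probe sets of the opposite sign. Their kinase Cdk4 was 5664 and 9477, and 10909 and 18390 (adjusted p 0.561), and the S-phase kinase Cdk2 was at the floor and 371, and 1041 and 2365 (adjusted p 0.125). Cyclin E gene Ccne1 was 436 and 886 on U34A but 1117 and 1061 on RAE2.0. Of 10 measured genes on the list of proteins known to be bound by large T, 2 were at least 2-fold higher (Rbl1 and Bub1) and 1 lower (Irs1) on RAE2.0, and limma called 0 of the 2 on both types, with 0 at an unadjusted p under 0.05.

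Of CDK inhibitors and senescence genes, limma called 0 of 12, with 1 higher and 1 lower at an unadjusted p under 0.05, and on RAE2.0 3 of 18 were at least 2-fold higher and 4 lower (9.61% and 8.69% of all genes). Cdkn2a, which encodes p16 and p19Arf, was high in both, at 5948 in OEC Lp and 9253 in TEG3 on RAE2.0, and 528 in OEC Ep. Cdkn1a, the p53 target p21, was 438 and 512 on U34A and 421 and 415 on RAE2.0, a log2 difference of 0.10 ± 0.31. Cdkn1b (p27) was 249 and 528, and 1953 and 3240 (adjusted p 0.274), and Cdkn2b (p15) 249 and 500, but 1535 and 1062 (adjusted p 0.890). Among p53 targets, 4 of 26 were at least 2-fold higher and 2 lower on RAE2.0 (median 0.25), which is near those shares, and limma called 0 of 11, with 0 higher and 2 lower at an unadjusted p under 0.05. Mdm2, which targets p53 for degradation, was 512 and 461 on U34A and 1228 and 4298 on RAE2.0 (adjusted p 0.561). Ccng1 was 6964 and 3144 on U34A but 2106 and 2636 on RAE2.0, and Gadd45a 597 and 383, and 10224 and 11379 (adjusted p 0.826). The types therefore disagreed in direction for these 3 genes. Plk2, on RAE2.0 alone, was 1273 in OEC Lp and 8919 in TEG3.

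**Figure D4:**
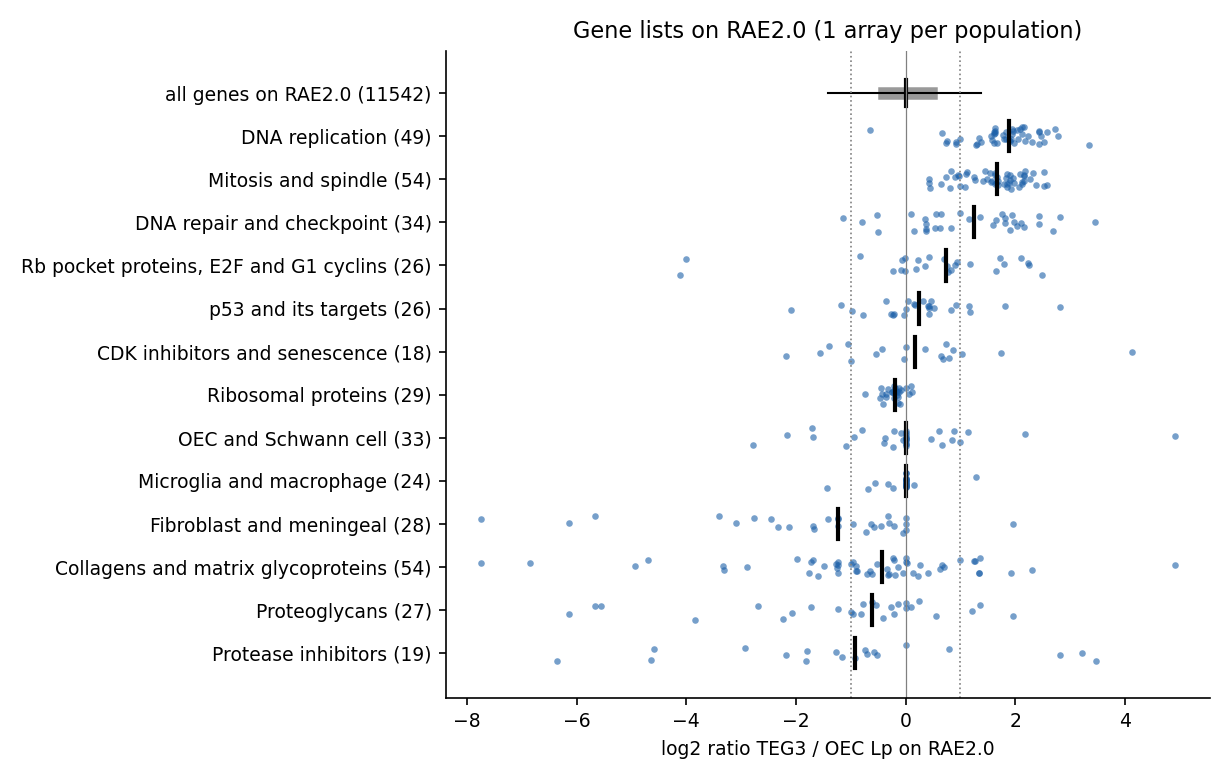
Log2 ratio of TEG3 over OEC Lp on RAE2.0 for members of 13 lists, 1 point per gene and a bar at the median, with all 11542 genes at the top as their 5th to 95th percentile (thin line), quartiles (thick) and median. DNA replication (median 1.89) and mitosis (1.67) sit to the right, ribosomal protein genes near 0, and fibroblast and meningeal genes (-1.23) to the left.

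Fibroblast and meningeal markers gave less signal in TEG3 in most members. On RAE2.0, 15 of 28 were at least 2-fold lower and 1 higher, with a median of -1.23, where 8.69% of all genes were at least 2-fold lower. On both types limma called 1 of 15 (Omd), 8 were lower at an unadjusted p under 0.05 (9.49% of all genes) and the median was -1.07. The summed signal was 100493 in OEC Lp and 45788 in TEG3 for 19 genes on U34A, and 239682 and 72209 for 28 genes on RAE2.0, with 24 genes above the floor in OEC Lp and 19 in TEG3. Requiring signal above the floor on all 3 arrays left 6 genes at least 2-fold lower. Col1a2, a chain of type I collagen, was 21033 in OEC Lp against 1971 in TEG3 on U34A, and 36033 and at the floor on RAE2.0, with the types far apart in size (adjusted p 0.0722). Col3a1 was 39921 and 7850, and 78963 and 24372 (adjusted p 0.0592). Igfbp6 was 11928 and 1097, and 5107 and 1021 (adjusted p 0.0562). Fn1, fibronectin, was 3980 and 1307, and 68573 and 29018 (adjusted p 0.121). All 4 stayed detected in TEG3 on at least 1 type. Meningeal transcription factors on RAE2.0 alone had the same sign: Foxc1 was 2118 in OEC Lp and 200 in TEG3, and Tbx18 2511 and 369. The part of fibroblast or meningeal cells in the other lower genes was not tested.

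Collagens and matrix glycoproteins included 19 of 54 members at least 2-fold lower and 8 higher on RAE2.0 (median -0.43; 8.69% and 9.61% of all genes), and 2 of 29 called lower, Efemp1 and Loxl1, against 1.05% of all genes. Plod2, a collagen lysyl hydroxylase, had the opposite sign, at 1801 in OEC Lp against 6217 in TEG3 on U34A and 1604 and 7955 on RAE2.0 (log2 2.05 ± 0.34, adjusted p 0.0576). On RAE2.0, the laminin gene Lama2 was 1670 and at the floor, whereas Lama5 was 706 and 2680. Among proteoglycans, 9 of 27 were at least 2-fold lower and 3 higher on RAE2.0 (8.69% and 9.61% of all genes), at a median log2 ratio of -0.62. Limma called 1 of 20 lower, Omd, against 1.05% of all genes. At an unadjusted p under 0.05, 5 were lower and 1 higher (9.49% and 5.91% of all genes). Vcan, versican, was 1023 and 8745, and 606 and 1546 (adjusted p 0.109), while Sdc2, syndecan 2, was 1998 and 678, and 6349 and 1928 (adjusted p 0.0835). The list thus held members of both directions, with more lower than higher.

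Protease inhibitors had a median log2 ratio of -0.92 on RAE2.0, with 9 of 19 at least 2-fold lower and 3 higher (8.69% and 9.61% of all genes), and 11 of the 13 on both types were lower on both (30.6%). Limma called 2 lower, Serping1 and Tfpi (1.05% of all genes), and 7 were lower and 1 higher at an unadjusted p under 0.05 (9.49% and 5.91%). Timp2, an inhibitor of metalloproteases, was 16208 in OEC Lp and 5615 in TEG3, and 10644 and 3076 (log2 -1.66 ± 0.31, adjusted p 0.0731). Cst3, cystatin C, was 7847 and 1851, and 53128 and 7013 (adjusted p 0.0711), and Timp1 was 10898 and 8578, and 23821 and 10733 (adjusted p 0.563). Against this, Slpi, on RAE2.0 alone, was 245 and 2286. Among matrix proteases limma called 0 of 25, with 3 higher and 3 lower at an unadjusted p under 0.05 (5.91% and 9.49% of all genes). The lysosomal Ctsc was at the floor in OEC Lp and 368 and 691 in TEG3 (adjusted p 0.0798), while cathepsin L gene Ctsl was 10654 and 4091, and 22623 and 7102 (adjusted p 0.125). Mmp9 was at the floor in both populations on both types, and Mmp2 was at most 232 in either. Plat, tissue plasminogen activator, was 3065 and 1800, and 10516 and 6085 (adjusted p 0.305).

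Of 28 adhesion genes on both types, 2 were called lower, Alcam and Itgb4 (1.05% of all genes), and 12 of 46 were at least 2-fold lower and 6 higher on RAE2.0 (8.69% and 9.61%). Of 42 growth factor and receptor genes, limma called 1 higher (Ltbp1) and 2 lower (Fgfr1 and Fgf1), against 0.192% and 1.05% of all genes. The list's median was -0.02, with 4 higher and 9 lower at an unadjusted p under 0.05 (5.91% and 9.49% of all genes). On RAE2.0, 9 of 50 were at least 2-fold higher and 14 lower (9.61% and 8.69% of all genes). U34A had 7 of 47 higher and 10 lower by that measure (8.06% and 11.5% of all genes there). Bdnf, a neurotrophin, was 186 and 185 on U34A and 193 and 538 on RAE2.0 (adjusted p 0.545), and Gdnf was near the floor throughout, at most 268. For axon guidance genes limma called 0 of 9, with 1 higher and 0 lower at an unadjusted p under 0.05 (5.91% and 9.49% of all genes). On RAE2.0, 9 of 33 guidance genes were at least 2-fold lower and 2 higher (8.69% and 9.61% of all genes). Among the lower were Sema5a, at 1183 in OEC Lp and at the floor in TEG3, and Rgma, at 886 and at the floor. The guidance receptor Unc5b was 526 and 1047, and 412 and 1932 (adjusted p 0.232).

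Cytokine, chemokine and complement genes had 3 of 28 called lower (Serping1, Cx3cl1 and Cd59b), against 1.05% of all genes. At an unadjusted p under 0.05 in the limma fit, 2 were higher and 6 lower (5.91% and 9.49% of all genes). On RAE2.0, 7 of 39 lay at least 2-fold above OEC Lp and 7 below (9.61% and 8.69% of all genes). On U34A, 5 of 28 lay at least 2-fold above and 10 below (8.06% and 11.5% of all genes there). Il18, not called, was 7416 in OEC Lp against the floor in TEG3 on U34A and 2531 and at the floor on RAE2.0 (adjusted p 0.0627). The neutrophil chemokine Cxcl1, on RAE2.0 alone, was 1514 in OEC Lp and 26636 in TEG3. For interferon and class I genes limma called 0 of 20, with 0 higher and 4 lower at an unadjusted p under 0.05 (5.91% and 9.49% of all genes). On RAE2.0, 6 of 41 were at least 2-fold higher and 4 lower (9.61% and 8.69%), at a median log2 ratio of -0.08. U34A differed, with 9 of 20 at least 2-fold lower and 0 higher (11.5% and 8.06% of all genes there) and a median of -0.82. Of the 20 on both types, 10 were lower on both and 2 higher on both (30.6% and 26.5% of all genes). Isg15, an interferon-induced modifier, was 16841 and 3307 on RAE2.0, and Ifit3 2319 and 353, while Bst2 was 1431 and 3391.

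Of 27 OEC and Schwann cell genes on both types, 1 was called (Alcam, lower) and 6 were lower and 1 higher at an unadjusted p under 0.05 (9.49% and 5.91% of all genes). The filament gene Vim was 80155 in OEC Lp and 22080 in TEG3, and 83846 and 25929 (log2 -1.78 ± 0.30, adjusted p 0.0629). Fbln2, a fibulin of ensheathing glia, was 288 and 8686 on RAE2.0. Most microglia and macrophage markers were at the floor in both populations on RAE2.0: 5 of 24 genes were above it in OEC Lp and 5 in TEG3 on RAE2.0, with summed signals of 6977 and 5206 against 95192 in OEC Ep, and limma called 0 of 11, with 0 at an unadjusted p under 0.05. Cd14, an endotoxin co-receptor, was above it in both, at 376 and 369 on U34A and 2787 and 1035 on RAE2.0 (adjusted p 0.621). Lyz2, lysozyme, was 192 and 378 on U34A against 17278 in OEC Ep. Astrocyte and oligodendrocyte markers had 0 of 8 called, with 1 higher and 3 lower at an unadjusted p under 0.05 (5.91% and 9.49% of all genes). Their summed signal was 11073 in OEC Lp against 3346 in TEG3 for 11 genes on U34A and 108383 against 9615 for 12 genes on RAE2.0. The median log2 ratio was only -0.06 on U34A and 0 on RAE2.0. On RAE2.0, 2 of the 12 were at least 2-fold higher and 4 lower (9.61% and 8.69% of all genes). The gap junction gene Gja1 was 6107 in OEC Lp and 1195 in TEG3, and 63163 and 5002 (log2 -3.01 ± 0.48, adjusted p 0.0562), and Cldn11, at 37813 in OEC Lp and at the floor in TEG3 on RAE2.0, is also on that list. Gja1 and Cldn11 made up most of the OEC Lp sum on RAE2.0. Neuronal markers other than Uchl1 had no call.

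Endothelial markers had 0 of 5 called by limma and summed to at most 3664 on any array, that of OEC Lp on RAE2.0. At an unadjusted p under 0.05, 1 was higher and 0 lower (5.91% and 9.49% of all genes). On RAE2.0, 4 of 9 were at least 2-fold lower and 0 higher (8.69% and 9.61% of all genes). U34A had 0 of 7 at least 2-fold lower and 1 higher (11.5% and 8.06% of all genes there). Epithelial markers had 0 of 7 called by limma, with 3 lower at an unadjusted p under 0.05 (9.49% of all genes). On RAE2.0, 5 of 13 were at least 2-fold lower and 3 higher (8.69% and 9.61% of all genes). Tspan8, a tetraspanin, was 957 in OEC Lp against the floor in TEG3 on U34A and 9122 and 386 on RAE2.0 (adjusted p 0.0722), and Cdh1, E-cadherin, was 1071 and at the floor on RAE2.0, while desmoplakin gene Dsp was at the floor and 1296. Contractile genes had 1 of 12 called lower (Tnnt2), against 1.05% of all genes. On RAE2.0, 6 of 23 contractile genes were at least 2-fold higher and 2 lower (9.61% and 8.69% of all genes), at a median log2 ratio of 0.25. U34A leaned the other way, with 1 of 13 at least 2-fold higher and 3 lower (8.06% and 11.5% of all genes there). Its median was -0.42. Summed contractile signal on U34A was 31600 for OEC Lp and 14237 for TEG3, while RAE2.0 gave 63807 and 71590. Myl9, not called, was 8579 and 440, and 1093 and 579 (adjusted p 0.226). The caveolar gene Cav1, from the adhesion list, was 2223 and 597, and 25681 and 2804 (adjusted p 0.0627). The tropomyosin gene Tpm2 was at the floor in OEC Lp and 580 and 1367 in TEG3 (at least 6.04-fold, adjusted p 0.0562).

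Sex-linked genes separated the populations on RAE2.0. Xist, the RNA that coats the inactive X chromosome, was 4002 in OEC Lp, at the floor in TEG3 and 1829 in OEC Ep, and the Y-linked Eif2s3y was at the floor in OEC Lp, 2116 in OEC Ep and 4826 in TEG3. Uty, annotated to the Y chromosome, was 2331 in OEC Lp and 1980 in TEG3 and did not separate them. Donor sex is not among the labels used here, and its part in the other differences was not tested.

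Lists for general metabolism held no call. In the limma fit over all genes, 5.91% were higher and 9.49% lower at an unadjusted p under 0.05. Limma called 0 of 24 glycolysis and hypoxia genes (4 higher and 2 lower at an unadjusted p under 0.05), 0 of 19 cholesterol and fatty acid synthesis genes (0 and 0), 0 of 25 immediate early genes (1 and 4), 0 of 36 antioxidant and detoxification genes (2 and 9) and 0 of 26 ribosomal protein genes (0 and 0). Within these, Cyp1b1, a detoxifying cytochrome P450, was 14437 in OEC Lp against 1409 in TEG3 on U34A and 11138 and 1031 on RAE2.0 (log2 -3.40 ± 0.52, adjusted p 0.0562). Ephx1, microsomal epoxide hydrolase, was 2257 and 348, and 2240 and 526 (adjusted p 0.0562). Metallothionein Mt2A, on RAE2.0 alone, was 2131 and 17125. Ribosomal protein genes had a median of 0.38 on U34A and -0.20 on RAE2.0, with 0 of 29 past 2-fold on RAE2.0.

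On RAE2.0 alone, 8412 genes were measured, 434 of which also had a U34A probe set that was too dim. With 1 array per population there is no test, and the ratios have no replicate check. In TEG3, 819 were at least 2-fold higher (9.74%) and 676 at least 2-fold lower (8.04%), of which 213 and 244 are bounds. Of the 27 DNA replication genes in this set 25 were at least 2-fold higher, of the 34 mitosis genes 29, and of the 22 repair genes 14.

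Fbln2, above, had the highest computed ratio, 30.2-fold, with 47476 in OEC Ep, and the bound for Eif2s3y, at least 28.7-fold, was close to it. The chemokine Cxcl12 was 220 in OEC Lp and 5249 in TEG3 (at least 23.8-fold), the secreted serine protease Htra1 271 and 6058 (22.4-fold), and the lysosomal thiol reductase Ifi30 368 and 3878 (10.5-fold). The mitochondrial folate enzyme Aldh1l2 was at the floor in OEC Lp and 1835 in TEG3. Hjurp, which deposits the centromeric histone, and the meiotic recombination gene Mnd1 were likewise at the floor in OEC Lp and 1901 and 1803 in TEG3. Hoxa9, a posterior homeobox gene, was at the floor in both primary cultures and 1787 in TEG3, at least 10.6-fold higher. Armcx4 was 245 and 3469, and Bend4 was at the floor and 1769. OEC Ep was also high for Htra1 (10136), Armcx4 (5055), Ifi30 (4690) and Aldh1l2 (1934), as it was for Cxcl1 (41322).

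The lowest ratio was that of Cldn11, a tight junction claudin of myelin and of the meninges, at 37813 in OEC Lp and at the floor in TEG3, at least 225-fold lower. OEC Ep was also low, at 547. Ogn, osteoglycin, a leucine-rich proteoglycan, was 13225 and 187 (at least 70.8-fold), the matrix gene Sned1 11675 and at the floor (at least 69.5-fold), and the scavenger receptor Colec12 28894 and 470 (61.5-fold). The transcription factor gene Foxp2 was 8312 in OEC Lp and at the floor in TEG3, the mesenchymal homeobox gene Prrx2 7233 and 184, Tfap2b, an AP-2 factor, 5473 and 196, and Zbtb7c 5176 and 200. All 4 were dim in OEC Ep, between 191 and 583. The interferon-induced Ifitm1 was 6610 and 180, the small heat shock gene Hspb8 6537 and 188, Nkain4 5435 and at the floor, and the matrix gene Abi3bp 4704 and at the floor. OEC Ep was at 1441 for Ifitm1 and 1090 for Colec12, and between 191 and 655 for the other 10 of the 12.

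**Figure D5:**
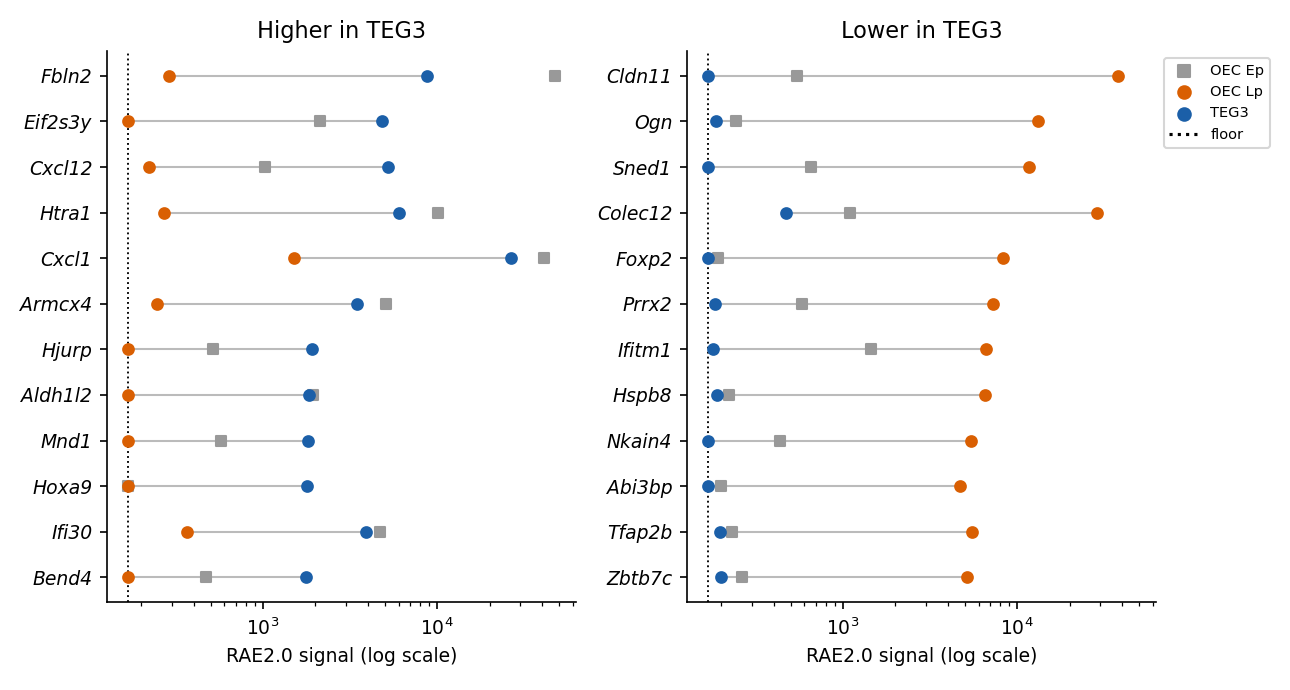
RAE2.0 signals (log scale) of the 12 genes with the highest (left) and the 12 with the lowest (right) TEG3 to OEC Lp ratio among genes on RAE2.0 alone, with OEC Lp in orange, TEG3 in blue, OEC Ep as grey squares and the floor dotted, 1 array per point. In the right panel OEC Lp stands above OEC Ep for all 12 genes, led by Cldn11 at 37813, and above TEG3 by the choice of genes.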

How the data were processed

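Total RNA of the 3 populations had been hybridised to U34A (8799 probe sets) and RAE2.0 (31099) arrays. The deposited tables give linear intensities from MAS5, per the submitters' processing notes, with no detection calls. A probe set filter in Microarray Suite 5.0 is mentioned in the design text, with no setting. Arrays were scaled within their type to a common 2% trimmed mean, floored at the 40th percentile, and stripped of control probe sets (59 and 57). Probe sets above the floor on at least 1 of 3 arrays (6354 and 22185) and with a single gene symbol in the platform annotation were averaged per gene on the log2 scale (308 and 436 had several symbols, 1426 and 9780 none). Genes found on both types entered a fit with limma 3.58.1 (R 4.3.3) on all 6 arrays, with population and array type, which is the replicate block and pairs the arrays by the labels, as terms, and adjusted by Benjamini-Hochberg over 3130 genes at 0.05. There were 2 residual and 3.61 prior degrees of freedom, and the number of arrays limits the precision. Ratios on 1 type have no test.

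Named genes were the 15 largest called in each direction, up to 4 members per list and measure of 30 lists, the 12 highest and lowest ratios on RAE2.0 alone and a fixed list of cell cycle, glial and protease genes. Predicted genes were skipped. The comparison, the lists and this rule were chosen with earlier results of these data known. On simulated data for this comparison (3130 genes, 200 changed, 20 runs) the fit found 1.7% of the 2-fold changes, 35.6% of the 4-fold, 63% of the 8-fold and 69.7% of the 16-fold ones, with 3.9% false calls. The simulated spread was drawn from the prior of the fit itself, with changes of equal size on both types. Its share of false calls is therefore not an error rate for the called genes. Alternatives covered the floor, the filter, the scaling, the choice of probe set, the arrays fitted, the block and the prior.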

Additional observations from a re-analysis of the deposited data

How the results depend on the processing

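The count of 39 called genes (6 higher, 33 lower) became 0 with no floor, 4 (0 higher, 4 lower) with the floor at the 20th percentile, and 0 with no filter on dim probe sets, with the 4 arrays of TEG3 and OEC Lp alone, or with no replicate block, and ranged from 0 to 0 when single arrays were left out. In limma fits with 0 calls, 436 genes (no floor), 469 (no filter), 375 (4 arrays), 108 (no block) and 317 to 375 (single arrays left out) had an unadjusted p under 0.05. Taking the probe set with the highest mean signal gave 57 calls, 11 of them higher, and 38 of the 39. The floor at the 60th percentile gave 56 and kept 31 of 39, quantile normalization 40 and 38, values as deposited 41 and 39, and an intensity trend in the prior 54 and 39. Signal above the floor on all 3 arrays gave 40, with 20 of the 20 still tested. Why calls are lost without the floor or the filter was not tested, while fewer arrays leave 1 residual degree of freedom. Genes at least 2-fold lower on RAE2.0 alone went from 676 to 1173 with no floor, 1106 at the 20th and 433 at the 60th percentile. Genes at least 2-fold apart went from 730 to 1278, 1339 and 420 on U34A and from 2112 to 3279, 3347 and 1387 on RAE2.0. Replication genes at least 2-fold higher on RAE2.0 numbered 41 or 42 and mitosis genes 43 to 47 in all settings tried. RT1-CE5, a class I gene on RAE2.0 alone with a log2 ratio of 1.36, was at -0.24 when probe sets had to be above the floor on all 3 arrays or the brightest was taken.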
